A study of Mus musculus with 2 samples.

Results

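Enzyme genes that take apart tyrosine, tryptophan, histidine, glycine and serine were read out in the liver of mouse embryos: Hpd, Tat, Tdo2, Fah, Hal, Hgd, Gldc, Sds and Agxt. These 9 genes were matched by symbol to the Ensembl gene identifiers of the deposited mm10 tables, and all 9 were found among the 43346 gene rows. The study holds 1 group and no contrast: livers of C57BL/6J embryos at 14.5 days after conception, taken from littermates of both sexes and pooled. Poly-A+ RNA longer than 200 nt was depleted of ribosomal RNA and sequenced as stranded paired-end libraries in 2 biological replicates. The labels give both replicates the same donor entry and do not say whether they came from separate litters, so a p-value below measures only how far these 2 libraries differ.

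The adult hepatocyte clears surplus amino acids by pathways that run as fixed chains of enzymes. Tyrosine is passed by Tat, Hpd, Hgd, Gstz1 and Fah in turn to fumarate and acetoacetate; Tdo2 opens the kynurenine route of tryptophan; Hal opens the breakdown of histidine; Gldc is the decarboxylase of the glycine cleavage system; Sds turns serine into pyruvate; and Agxt transfers the amino group of alanine to glyoxylate. Tat, Tdo2 and Sds are hormone-responsive enzymes, and in rodents Tat and Tdo2 are classical markers of hepatocyte maturation around and after birth. At the embryonic day studied the organ is also the main site of red cell formation, and in such bulk RNA fewer cells of a type and less RNA per cell cannot be told apart.

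The promoters of a pair of well-expressed tyrosine enzymes and of the 2 lowest of the listed genes are shown, because they stand at opposite ends of the range of levels. Each run is the 250 bases before the RefSeq start on GRCm38.p6, read 5′ to 3′ on the gene's strand. Capitals mark matches to any of 9 short motifs on either strand. The Tdo2 run lies inside the gene span given below, which is from the GENCODE annotation, so it is not upstream of that span.
Hpd, chr5:123182724-123182973, minus strand: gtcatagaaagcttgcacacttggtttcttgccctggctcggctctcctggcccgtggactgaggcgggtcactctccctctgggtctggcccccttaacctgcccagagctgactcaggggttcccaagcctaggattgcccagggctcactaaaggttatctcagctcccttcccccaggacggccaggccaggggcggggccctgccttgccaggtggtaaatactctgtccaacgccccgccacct
Hgd, chr16:37579903-37580152, plus strand: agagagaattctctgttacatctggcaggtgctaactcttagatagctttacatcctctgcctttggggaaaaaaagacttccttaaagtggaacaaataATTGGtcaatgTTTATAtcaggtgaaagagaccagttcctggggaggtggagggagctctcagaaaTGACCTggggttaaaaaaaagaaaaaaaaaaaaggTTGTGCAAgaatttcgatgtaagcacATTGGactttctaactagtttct
Tat, chr8:109990186-109990435, plus strand: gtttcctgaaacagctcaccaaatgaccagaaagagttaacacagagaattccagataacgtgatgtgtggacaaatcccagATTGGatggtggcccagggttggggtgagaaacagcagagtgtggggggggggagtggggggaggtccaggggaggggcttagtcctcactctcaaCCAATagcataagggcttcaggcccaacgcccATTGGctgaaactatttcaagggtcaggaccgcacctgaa
Tdo2, chr3:81975729-81975978, minus strand: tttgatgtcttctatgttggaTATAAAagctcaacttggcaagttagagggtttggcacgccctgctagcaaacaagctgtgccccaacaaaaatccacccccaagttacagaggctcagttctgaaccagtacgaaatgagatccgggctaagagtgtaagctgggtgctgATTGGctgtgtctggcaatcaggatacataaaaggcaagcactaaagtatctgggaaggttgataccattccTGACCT

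Motifs were searched as exact letters on both strands in windows of 300 bases (250 before and 50 after the start). The promoter elements were the TATA box, spelled TATAAA, and the box spelled CCAAT. The C/EBP site was spelled TTGCNNAA and the nuclear receptor element was spelled AGGTCA. The glucocorticoid receptor element was spelled TGTTCT, and the FOXA site was searched as TGTTTAC. The HNF1 element was searched as GTTAAT, the HNF4 core as CAAAGTCCA, and the cyclic AMP response element as TGACG. A window was given for 8 of the 9 genes, all except Sds. The CCAAT box was found in 5 of the 8 (Gldc, Hal, Hgd, Tat and Tdo2) and in 37.4% of all 32851 windows of the same length. Tat alone among the 8 held 3 copies, starting 168, 72 and 40 bases before its start. The C/EBP letters were found in Hgd and Hal, and in 10.8% of all windows. The TATA box was found in Hal, Hgd and Tdo2, and in 13.6% of all windows. In Hal it began 28 bases before the start and in Hgd 139 bases, in both on the opposite strand. In Tdo2 it lay on the gene's strand, 229 bases before the start. The nuclear receptor element was found in Hgd and Tdo2, and in 16.3% of all windows. The glucocorticoid receptor element was found in Agxt alone of the 8, and in 19% of all windows. The HNF1, HNF4, FOXA and cyclic AMP letters were in none of the 8 windows, and 7.1%, 0.475%, 3.65% and 20.8% of all windows held them. The windows differed widely in composition: Fah had 64.3% G+C and 19 CpG, while Hgd had 41.0% G+C and 2 CpG, against a median of 52.7% and 7 CpG over all windows. Like the Tdo2 run, the Fah window lies inside its GENCODE gene span. A match describes letters in a window and no site.

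Replicate 1 had 102720920 estimated counts over all genes and replicate 2 had 65640933, so that 3 counts, the most that a count of 0 allows, stood for 0.0292 and 0.0457 CPM (counts scaled to library size). Both libraries were liver by their markers: 10 of 10 hepatocyte markers stood above 10 TPM (a transcript level scaled for length and library size), among them Alb at 10323 and 8911 TPM, and their summed level was 26820 TPM in replicate 1 and 21820 TPM in replicate 2. All 8 red cell markers were above 10 TPM as well (sums of 2498 and 2500 TPM). Of 9 markers of kidney, another organ that expresses several of these enzymes, none reached 1 TPM, and Umod and Aqp2 had no count in either library. Mean fragment length was 214.2 nt in replicate 1 and 302.7 nt in replicate 2. Counting intervals here cover counting error only, since each ratio sets 1 library against 1 library and holds no spread between replicates. The reads carried no molecular identifiers, so copies of 1 molecule could not be told from separate molecules.

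The 9 genes fell into 3 tiers of level. Fah, Hpd, Gldc and Hgd stood between 18.8 and 31.1 TPM, Agxt and Hal between 1.52 and 2.86 TPM, and Sds, Tat and Tdo2 below 1 TPM in both libraries. Thus 6 of the 9 reached 1 TPM in both libraries, as 11209 of all 43346 genes did. Their median mean level was 2.65 TPM, against 13.7 TPM for the 74 other genes of 8 amino acid pathway lists and 1.28 TPM for the 22233 genes with any count. Among genes with a count, Fah and Hpd stood at percentiles 90.0 and 89.9, Agxt at 58.3 and Tdo2 at 6.45. In the order of mean TPM, neighbours whose order differed between the libraries were Fah and Hpd, Gldc and Hgd, and Sds and Tat; every other pair of neighbours was in the same order in both libraries.

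**Figure D1:**
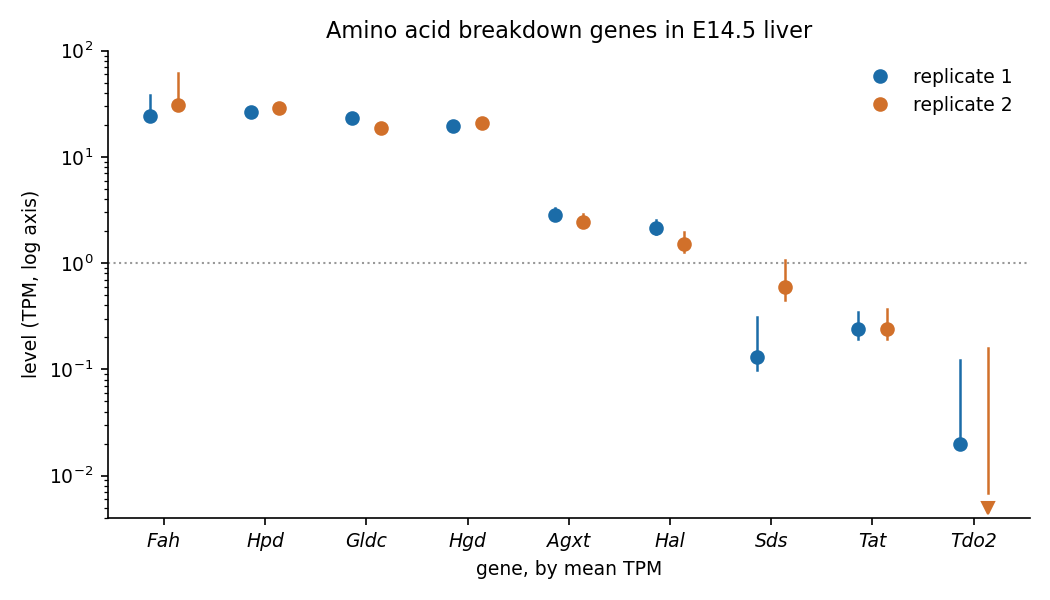
Level of each of the 9 genes in TPM on a log axis, with replicate 1 left of replicate 2; points are the deposited values, vertical lines the authors' deposited interval (its level is not stated), the dotted line is 1 TPM and the triangle at 0.005 is a value of 0. The first 4 genes lie between 18.8 and 31.1 TPM, while Tat lies at 0.24 TPM in each and Tdo2 at 0.02 and 0 TPM.

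The tyrosine chain was well expressed after its entry step, which was low. Hpd, the dioxygenase that makes homogentisate (5:123171807-123182727, minus strand, mm10), had 26.5 TPM in replicate 1 and 28.6 TPM in replicate 2, from 3625 and 2992 counts. Hgd, which opens the ring of homogentisate and whose loss causes alkaptonuria in humans (16:37580153-37632020, plus strand), had 19.5 and 21.0 TPM from 3588 and 2772 counts. The ratio of Hpd to Hgd was 1.36 in each library.

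Fah, the last enzyme of the chain, whose loss causes hereditary tyrosinaemia in humans (7:84585159-84606722, minus strand), had 24.5 TPM in replicate 1 and 31.1 TPM in replicate 2, from 3884 and 3586 counts. Its mean was 27.8 ± 4.62 TPM (SD, n = 2), against 27.6 ± 1.54 TPM for Hpd. The authors' deposited TPM interval of Fah was 23.8 to 38.1 in replicate 1 and 30.0 to 61.3 in replicate 2. The intervals of Hpd were narrower, 25.2 to 28.4 and 27.5 to 31.5. Gstz1, the isomerase between Hgd and Fah, is not among the 9 and had 69.6 and 63.8 TPM. Pcbd1 and Qdpr, which recycle the cofactor tetrahydrobiopterin, had 74.8 and 74.4 TPM and 29.3 and 30.0 TPM.

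Tat, the tyrosine aminotransferase that feeds this chain (8:109990437-109999803, plus strand), had 0.24 TPM in each library, from 65 and 50 counts. Per unit length, Hpd was 110-fold and 119-fold higher than Tat in replicates 1 and 2, Hgd was 81.1-fold and 87.6-fold higher, and Fah was 102-fold and 129-fold higher. On the log2 scale the ratio of Hpd to Tat averaged 6.84 with an SD of 0.08 between libraries. Of the 11 genes on the phenylalanine and tyrosine list, 9 reached 1 TPM in both libraries and 2 did not, Tat and Hpdl, a paralog of Hpd (0.18 and 0.15 TPM). The median of the list was 24.5 TPM in replicate 1 and 28.6 TPM in replicate 2, and its highest member was the aspartate aminotransferase Got2 at 102 and 90.2 TPM.

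**Figure D2:**
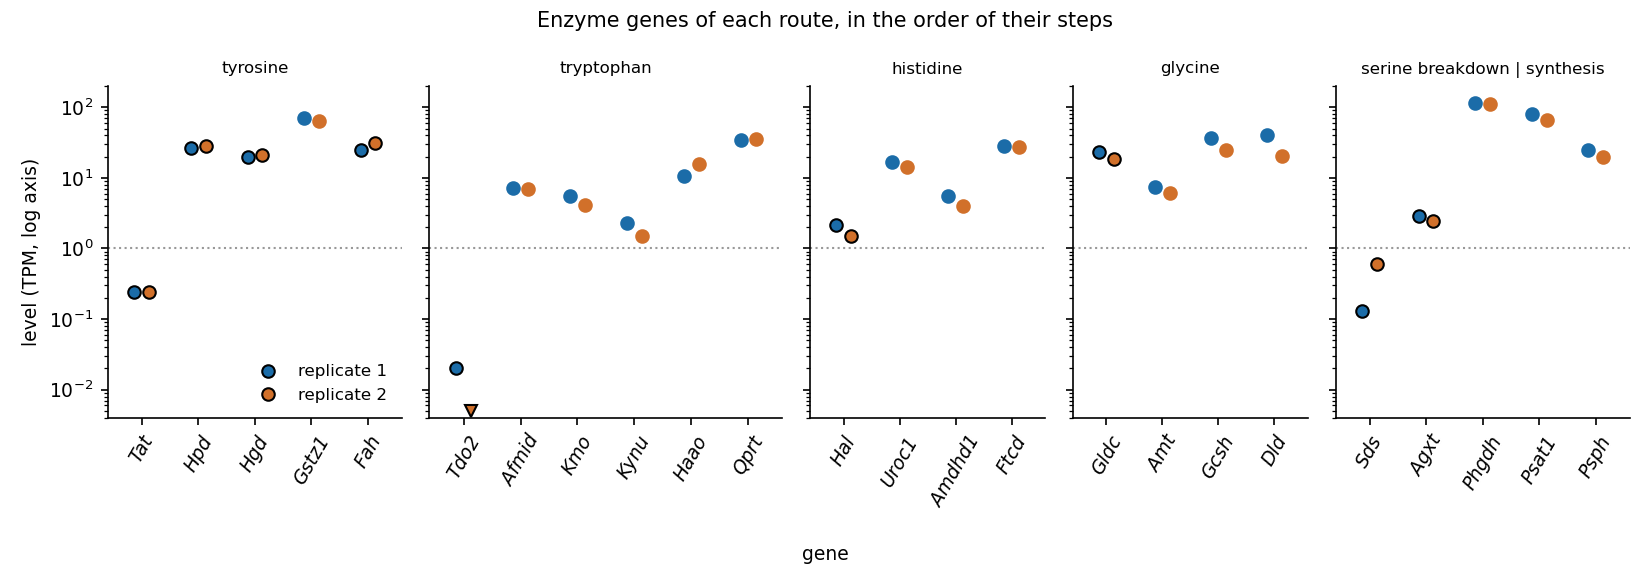
Level in TPM (log axis) of enzyme genes of 5 routes, ordered within each panel by step, with replicate 1 left of replicate 2; black outlines mark the 9 listed genes, the dotted line is 1 TPM and a triangle is a value of 0. Tat stands at 0.24 TPM in each library, below Hpd, the next step, at 26.5 and 28.6 TPM, and Tdo2 at 0.02 and 0 TPM stands below every later gene of the tryptophan panel.

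The few Tat reads included spliced ones along the whole gene. Junction reads come from a separate mm9 table, which gives 2 replicate values that are not tied to a library. All 11 introns of Tat-201 carried reads in both values, in all 55 and 32 reads, with a median of 3 per intron in each. The deposited irreproducible discovery rate, lower where the replicates match better, was 0.046 to 0.07 for 3 of the 11 introns. It was 0.135 to 0.306 for the rest. Sense contigs, the authors' stretches of covered genome, spanned 93.8% of the 2375 exonic bases of Tat. The mean RPKM (reads per kilobase, scaled to the number of mapped reads) of Tat in the mm9 gene table was 0.0774, against 8.14 for Hpd.

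Tdo2, the tryptophan dioxygenase (3:81957090-81976202, minus strand), was close to the limit of detection. It had 7 counts and 0.02 TPM in replicate 1 and 0 counts in replicate 2, where a count of 0 allows up to 0.0457 CPM. The mm9 junctions gave 7 reads in 1 replicate value and 0 in the other, on 4 of the 11 introns of Tdo2-201. Its single sense contig covered 0.0% of exonic bases. With fewer than 10 counts in all, Tdo2 was not tested between the libraries.

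The rest of the kynurenine route was measured at higher levels. Afmid, which acts directly after Tdo2, had 7.29 and 7.01 TPM, Kmo 5.55 and 4.1 TPM, Kynu 2.26 and 1.48 TPM, and Haao 10.7 and 15.5 TPM. Qprt, which takes the end product toward NAD, was the highest gene on the list at 34.1 and 35.5 TPM, followed by the aminotransferase Kyat1 at 13.7 and 16.7 TPM. The other enzymes that can open the route were low too: Ido1 had no count in either library, and Ido2 had 1 count in replicate 1 and 5 counts in replicate 2. In all, 9 of the 12 tryptophan genes reached 1 TPM in both libraries, and the 3 that did not were Tdo2, Ido1 and Ido2. The list's median was 4.5 TPM in replicate 1 and 3.8 TPM in replicate 2.

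Hal, the histidine ammonia-lyase (10:93488768-93519304, plus strand), had 2.14 TPM in replicate 1 and 1.52 TPM in replicate 2, from 540 and 383 counts. The next enzymes were higher: Uroc1 had 16.8 and 14.4 TPM, Amdhd1 5.5 and 4.02 TPM, and Ftcd, which passes the last carbon to folate, 28.5 and 27.4 TPM. Hal was 0.128 and 0.106 times Uroc1. All 4 histidine genes reached 1 TPM in both libraries.

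In the mm10 tables most of the TPM of Hal was assigned to a short transcript that codes for no protein, which the mm9 table did not show. Hal-204, a processed transcript of 851 nt at the 3′ end of the gene, held 54.5% and 55.4% of the gene's abundance in replicates 1 and 2, on 93.9 and 45.9 estimated counts. The coding transcript Hal-202, of 5319 nt, held 22.9% and 44.6% on 315 and 337 counts, which gave 0.49 and 0.68 TPM. Hal-201, annotated as a target of nonsense-mediated decay, held 22.6% in replicate 1 and 0% in replicate 2. Counted by its coding transcript alone, Hal therefore stood below 1 TPM in both libraries, and by estimated counts in place of abundance the share of Hal-204 was 14.7%. In the mm9 transcript table Hal-204 held 16.5% and 11.1% of the gene's RPKM, and the coding Hal-202 held 62.8% and 88.9%.

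Junction reads of Hal were also denser at the 3′ end. The 3 introns shared with Hal-204 had medians of 62 and 35 reads in the 2 mm9 values, and the other 16 introns had medians of 27 and 15.5. The other 5 genes above 1 TPM also had higher medians over their 3′ introns than over their 5′ introns in both values. In Gldc, with 1 annotated transcript in the mm10 table, the last 12 introns had medians of 641.5 and 406 reads, and the first 12 had 352 and 189. In Agxt the last 5 introns had medians of 91 and 70 reads, and the first 5 had 37 in each value. All 19 introns of Hal-202 carried reads in both values, and its sense contigs spanned 89.7% of its exonic bases. The last Hal intron was listed 2 nt off its annotated position, with 60 and 34 reads.

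**Figure D3:**
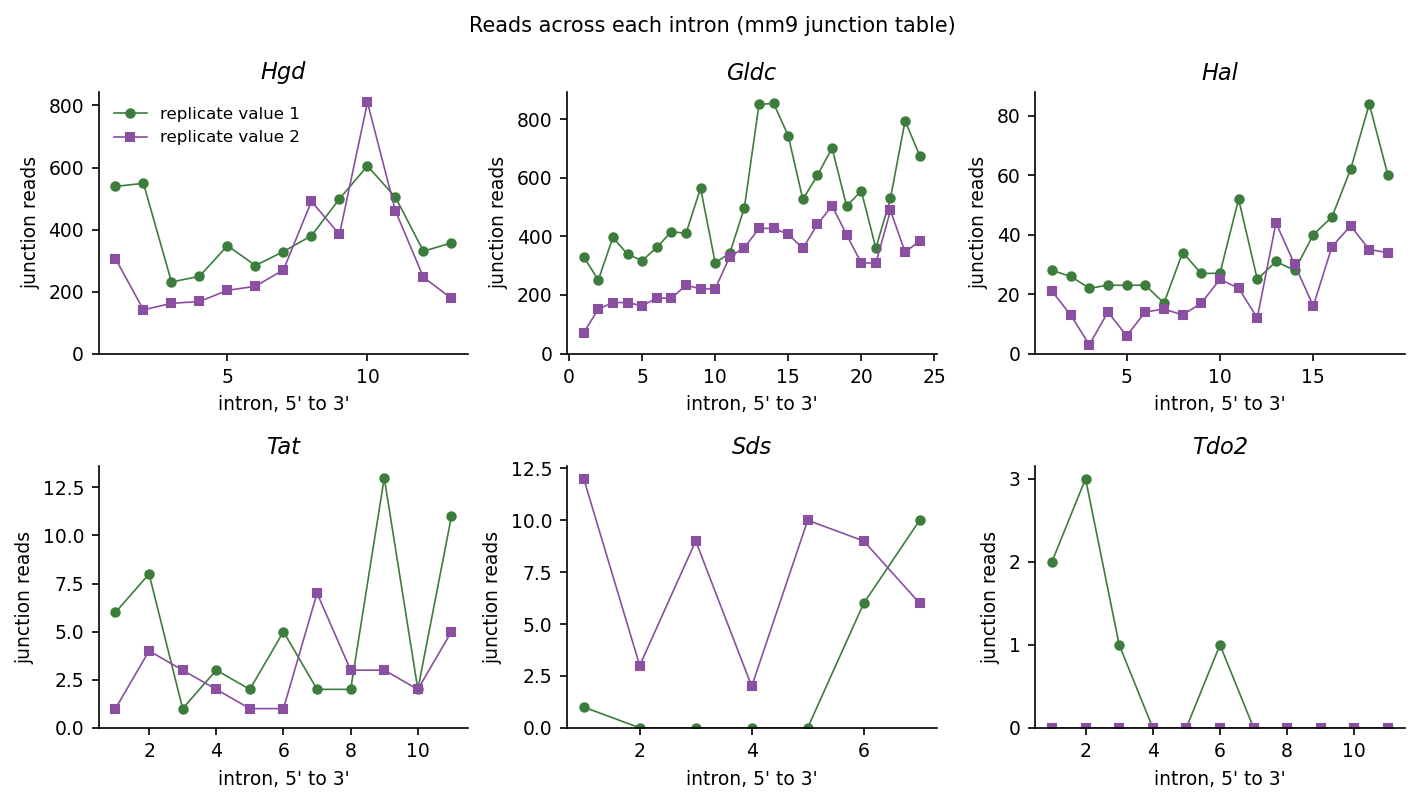
Reads across each intron, numbered 5′ to 3′, for 6 genes in the 2 replicate values of the mm9 junction table (circles and squares, not tied to a library); each panel has its own axis from 0. Hal and Gldc rise toward the 3′ end, Tat has reads on all 11 introns, Sds lacks reads on 4 of its first 5 introns in 1 value, and Tdo2 has reads on 4 introns in 1 value.

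Glycine cleavage was present as a complete set. Gldc (19:30098447-30175429, minus strand), whose loss causes nonketotic hyperglycinaemia in humans, had 23.3 TPM in replicate 1 and 18.8 TPM in replicate 2, from 10429 and 6398 counts, the most counts of the 9 genes. Its partners Gcsh, the lipoate carrier, Dld, the dehydrogenase, and Amt, the aminomethyltransferase, had 37.2 and 24.5 TPM, 39.8 and 20.6 TPM, and 7.32 and 6.13 TPM. Gldc was 3.19 and 3.06 times Amt. All 24 introns of Gldc carried reads in both mm9 values, with 401 to 1280 reads per intron over both.

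Agxt, which detoxifies glyoxylate and whose loss causes primary hyperoxaluria in humans (1:93135240-93145421, plus strand), had 2.86 TPM in replicate 1 and 2.43 TPM in replicate 2, from 484 and 301 counts. Gldc was 8.16 and 7.72 times higher. Grhpr, which also removes glyoxylate, had 48.1 and 47.1 TPM, while Hao1, which makes glyoxylate, had 0.4 and 0.28 TPM. All 10 introns of Agxt carried reads in both mm9 values, and Agxt-201 held 99.97% and 100% of its abundance.

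Sds, serine dehydratase (5:120476526-120483932, plus strand), had 0.13 TPM in replicate 1 and 0.6 TPM in replicate 2, from 16 and 42 counts. Its paralog Sdsl had 0.89 and 0.76 TPM. The genes that make serine were high: Phgdh had 116 and 112 TPM, Psat1 79.6 and 65.5 TPM, and Psph 25.1 and 19.5 TPM. Of the 23 genes on the glycine, serine and threonine list, 18 reached 1 TPM in both libraries, and Shmt2, the mitochondrial enzyme that converts serine to glycine, was the highest at 69.4 and 64.7 TPM. The list's median was 13.5 TPM in replicate 1 and 15.3 TPM in replicate 2. Beside Sds and Sdsl, the genes under 1 TPM were Hao1, Dao and Tdh, with Dao at 0.01 TPM in each library and Tdh at 0.02 and 0 TPM.

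The 2 libraries were compared gene by gene with a two-sided exact conditional binomial test on the counts, Benjamini-Hochberg adjusted over 17906 genes, and a gene was called at an adjusted p under 0.05 with at least a 2-fold difference. Of the 8 listed genes that were tested, 1 was called, Sds, and it was lower in replicate 1; over all tested genes 8.1% were called in either direction and 3.53% were called lower in replicate 1. The log2 ratio of Sds, replicate 1 over replicate 2, was -2.01 with a 95% counting interval of -2.96 to -1.17 (exact test, adjusted p = 1.6e-06). EdgeR's exact test used a dispersion estimated over all tested genes (25% beyond counting) from the same 2 libraries taken as 1 group. The differences under test were therefore part of that dispersion, so this test was conservative by design. With it, 0 of the 8 were called and 1 had an unadjusted p under 0.05. The adjusted p of Sds was 0.127 (edgeR exact test, unadjusted p = 0.00261).

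The mm9 junctions of Sds differed between their 2 values as well: the first 5 introns had 1 and 36 reads, and the last 2 had 16 and 15. Sds shares 651 nt of its 3′ end with Plbd2 on the opposite strand (4.19 and 4.3 TPM). The strongest antisense contig over Sds had a signal of 3.93, against 0.603 for its strongest sense contig, and antisense contigs spanned 64.8% of its exonic bases. Whether the gene counts used strand is not given in the sources used here. Beside Sds, 4 of 7 neural markers (Tubb3, Sox2, Snap25 and Elavl3) were also called lower in replicate 1 by the exact binomial test. Over all tested genes this share was 3.53%. Tubb3 had 0.67 and 3.8 TPM. The other 3 rested on few counts in replicates 1 and 2: Sox2 on 14 and 32, Snap25 on 11 and 35, and Elavl3 on 6 and 87. Map2 was lower in replicate 1 too, with 0.62 and 1.23 TPM (log2 ratio -0.47), but by less than the fold required. Gfap, the most abundant of the 7, was higher in replicate 1, with 12.1 and 8.16 TPM (log2 ratio 0.33), and Slc1a3 had a log2 ratio of 0.11. The summed level of the neural list was 13.7 TPM in replicate 1 and 14.1 TPM in replicate 2. Most of each sum was Gfap, so the near-equal sums do not describe the other members. The median log2 ratio over the 7 was -1.805. None of the 7 was at 0 in both libraries, and the part of neural cells in the result was not tested.

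The other 7 tested genes differed by less than 2-fold. The log2 ratio, replicate 1 over replicate 2, was -0.53 for Fah (1.44-fold), -0.36 for Hpd, -0.27 for Hgd and 0.06 for Gldc. For Fah the exact counting interval was -0.59 to -0.46, so that its libraries differed beyond counting error (exact test, adjusted p = 5.02e-54) but not by the fold required. The intervals of Agxt (-0.17 to 0.26), Hal (-0.34 to 0.05) and Tat (-0.82 to 0.30) included 0. For Hal the direction depended on the scale: its TPM was higher in replicate 1 while its scaled counts were not. None of the 70 other tested amino acid genes was called by either test. In the exact binomial test 52 had an unadjusted p under 0.05, and in edgeR's 0 did. The share of all tested genes under that unadjusted threshold is not given here, so the 52 cannot be read as particular to these genes. With many counts, small differences pass it: Alb had an unadjusted p of 0.00688 in the exact binomial test at a log2 ratio of -0.004. Because edgeR's dispersion held these differences, its 0 cannot show that they are absent. The median log2 ratio was -0.27 over the 8 tested genes and 0.01 over all tested genes.

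For Fah, Agxt and Tat 1 transcript held at least 99.66% of the abundance in both libraries. Gldc has 1 transcript in the mm10 table, and in the mm9 table, which has other models of the gene, Gldc-201 held 73.8% and 60.2%. Hpd-201, the full-length coding transcript of Hpd, held 88.6% in replicate 1 and 93.9% in replicate 2, and Hpd-203, a fragment of 334 nt annotated as coding, held 8.38% and 2.41% on 33.9 and 2.9 estimated counts. Hpd lies wholly within the span of Psmd9 on the opposite strand (19.9 and 13.7 TPM) and of the lincRNA Gm26745 on the same strand, which had 0 TPM in both libraries. Sds-201 held 100% and 74.7%, and the remaining 25.3% in replicate 2 rested on 2 estimated counts of Sds-203, a retained intron.

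**Figure D4:**
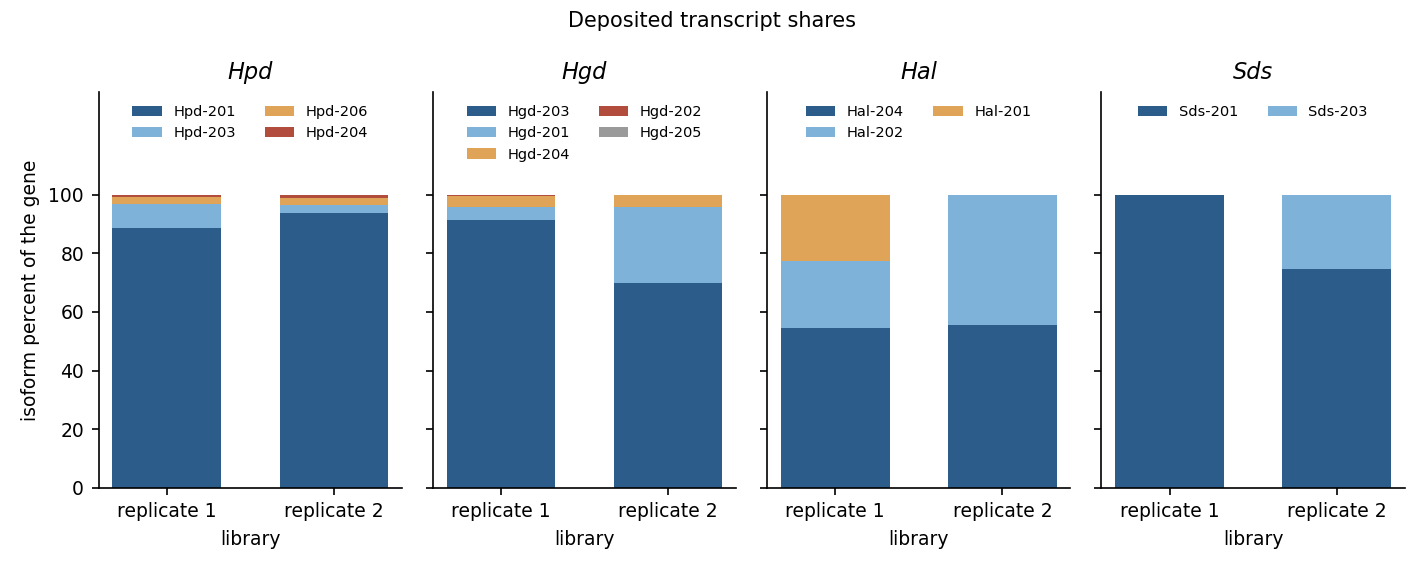
Deposited isoform percent of the transcripts of Hpd, Hgd, Hal and Sds, stacked to 100 for each library, with replicate 1 left of replicate 2. Hgd-201 holds 4.53% in replicate 1 and 26.0% in replicate 2, and the short noncoding Hal-204 holds 54.5% and 55.4%.

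The shares of Hgd transcripts also differed between the libraries. Hgd-203 held 91.3% in replicate 1 and 69.7% in replicate 2, and Hgd-201 held 4.53% and 26.0%, on 145 and 655 estimated counts. Hgd-201 lacks the third exon of Hgd-203, which is coding there, and its annotated reading frame starts later, within exon 2.

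Reads that join the exons on either side gave the skipped form a small share. The mm9 junction table held 1 and 3 reads across the skip in its 2 values. The joins into and out of the exon held 549 and 231 reads in 1 value and 141 and 162 reads in the other. Set against the mean of the 2 inclusion joins, skipping made up 0.256% (95% exact Clopper-Pearson interval 0.00647 to 1.42%) and 1.94% (0.401 to 5.55%) of junction reads. The mm9 transcript table gave Hgd-201 13.9% and 43.0% of the gene's RPKM, above both intervals. The 2 models also differ at the 5′ end, where Hgd-203 starts further upstream, and the cause of the different shares was not tested.

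Few junction reads lay outside the annotation. Unannotated junctions inside the genes carried 0.408% (Agxt) to 0.847% (Hgd) of junction reads in the 6 genes that reached 1 TPM in both libraries. The share was 2.25% in Tat and 1.45% in Sds, on 2 reads and 1 read, and Tdo2 had only 7 junction reads, all annotated. The most used one in both values skipped within Hpd between annotated splice sites, with 4 and 12 reads. In Hgd the most used had 7 and 3 reads and joined an unannotated site to an annotated one.

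The mm9 gene table ordered the genes much as the mm10 tables did. Mean RPKM was 8.14 for Hpd, 5.8 for Gldc, 4.41 for Hgd and 4.28 for Fah, then 0.489 for Agxt, 0.254 for Hal, 0.0774 for Tat, 0.0652 for Sds and 0.00335 for Tdo2, and 32 of the 36 gene pairs were in the order of the mean TPM. Relative to the mm10 FPKM, mm9 RPKM had a median ratio of 0.214, with quartiles of 0.169 and 0.265. These were taken over 11813 genes with mm9 signal whose FPKM values in the 2 libraries summed to at least 2. The ratio lay below the lower quartile for 5 of the 9 genes, at 0.106 for Hal, 0.114 for Fah, 0.127 for Sds, 0.14 for Agxt and 0.162 for Hgd. It was 0.242 for Tat, and 0.335 for Tdo2, above the upper quartile. Sds, Tat and Tdo2 themselves lay below the FPKM minimum of that comparison. The levels of the 2 tables are therefore set side by side only as an order.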

How the data were processed

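For each of 2 libraries the authors deposited gene and transcript tables on mm10 with annotation M4, named in a deposited note, whose columns per the file headers are an expected count, TPM, FPKM, an interval for TPM and the isoform percent. The mm9 tables hold RPKM, and the authors' contigs a coverage signal and a score (irreproducible discovery rate); deposited junctions hold a read count. The aligner is not given in the sources used here. Symbols and transcript types came from GENCODE M21. Expected counts were rounded, spike-ins were left out, TMM factors came from edgeR 4.0.16 (R 4.3.3), and genes with at least 10 counts in all were tested in scipy 1.17.1; 0.5 was added to counts in ratios. The test was checked on simulated counts that varied by counting error only, so the check does not cover further spread between the libraries. Junctions up to 3 nt off an annotated intron, of equal length, were assigned to it. The 9 genes, the lists and the rule for named genes (all 9; up to 4 highest, called and absent genes of a pathway list; up to 3 highest of a marker list) were chosen with earlier results of these data known; further pathway genes were named by their step after their values were seen. Alternatives covered library sizes, DESeq2 1.42.0 size factors, count minimums, units, pseudocounts and single replicates. Some items are not reported here.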

Additional observations from a re-analysis of the deposited data

How the results depend on the processing

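The call of Sds was kept with DESeq2 size factors, total counts, no count minimum and a minimum of 50 counts. It was lost with edgeR's common dispersion, estimated from the same 2 libraries, where 0 of the 9 genes and 242 of all genes were called. The adjusted p of Sds was 0.127 in edgeR's exact test. Over the other settings it was 3.44e-11 to 1.98e-06 in the exact binomial test. Spike-in totals as library sizes moved every log2 ratio by -0.66 and the median of tested genes to -0.65, and 3 of the 9 (Fah at -1.19, Hpd at -1.02, and Sds) and 3795 genes were then called; the 2-fold threshold was not shifted with them. A minimum of 50 counts left 797 called genes of 15010 tested. A single replicate kept 34 to 35 of the 36 pairs in order. No paired analysis was possible because the series has 1 group, and no comparison of the 2 libraries can leave out 1. Depth limits Tdo2, Sds and Tat: each rests on fewer than 100 counts per library.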

Other observations

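Genes that hepatocytes are known to switch on around birth were mixed in level. Of 8 such genes listed beside Tat and Tdo2, 4 reached 1 TPM in both libraries: Hamp, the iron hormone, with 11.5 and 14.2 TPM in replicates 1 and 2, the pentraxin Apcs with 13.8 and 9.69 TPM, Ugt2b5 with 3.84 and 3.71 TPM, and Cps1, the entry enzyme of the urea cycle, with 1.18 and 1.05 TPM. Pck1, an enzyme of gluconeogenesis, had 0.15 TPM in each library and G6pc 0.02 TPM in each. Cyp2e1 had 0.06 and 0.12 TPM, and Cyp7a1 0.47 and 0.12 TPM.

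Regulators of liver genes were present. Of 18 listed, 15 reached 1 TPM in both libraries, led by Hnf4a with 22.0 and 23.0 TPM, Cebpa with 14.3 and 17.8 TPM and Foxa3 with 11.9 and 13.8 TPM. Nr3c1, the glucocorticoid receptor, had 5.89 and 4.25 TPM, and Ppargc1a, a coactivator of fasting genes, 1.02 and 0.87 TPM. Cebpb was the 1 member of the 18 called between the libraries by the exact binomial test, higher in replicate 1 with 16.4 TPM, against 5.36 TPM in replicate 2. Over all 17906 tested genes, 818 were called higher in replicate 1, and 8.1% were called in either direction.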
